A study of Mus musculus with 6 samples.

Results

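The RNA of 9 genes through which autonomic nerves and adenosine act on heart muscle was described in the right atrium (RA) of mice, out of 54093 genes in the table. The set held the receptors Adra1a, Adra1b, Adrb1, Chrm2 and Adora1, the G protein subunit Gnao1, the adenylyl cyclase Adcy5, and the regulators of G protein signalling Rgs4 and Rgs6. They were chosen by symbol, and each symbol had a single row. The RAs came from wild-type C57BL/6 pups, male or female, that had surgery at P7 and were collected at P21. In the VO group, volume overload had been made by a fistula between the abdominal aorta and the inferior vena cava, and the sham group had surgery without the fistula. Each group had 3 RNA-seq libraries, named here sham 1 to 3 and VO 1 to 3, and no source says that tissue was pooled or which animals were littermates, so p-values measure the spread between these libraries. Since RA is bulk tissue, fewer cells of a type and less RNA per cell cannot be told apart in any value below.

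None of the 9 genes passed the test between VO and sham RA. Of the 8 that could be tested, 7 had a lower mean in VO and 1, Rgs4, had a higher mean, with log2 fold changes between -0.45 and 0.27 and the smallest adjusted p at 0.410 (limma). The lowest unadjusted p-values belonged to the receptors Adra1b and Adora1. Adra1a had at most 17 fragments in each of 5 libraries and 131 in VO 3, 76.2% of its fragments, and VO 3 also held the markers of fat.

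Norepinephrine from sympathetic nerves acts on beta receptors, which couple through Gs to adenylyl cyclase and raise cyclic AMP, and on alpha-1 receptors, which couple through Gq to phospholipase C. Acetylcholine from the vagus and adenosine made in the tissue act through Gi and Go. Gi lowers cyclic AMP. The beta and gamma subunits of these G proteins open the potassium channel of Kcnj3 and Kcnj5 subunits, which slows the atrium and the sinoatrial node. RGS proteins speed the GTPase of the alpha subunit and so shorten these signals.

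The libraries held between 15963082 and 17237903 fragments on genes, recovered from the FPKM values (fragments per kilobase of gene, scaled by library size). Genes with a mean of at least 1 FPKM over the 6 libraries, 12627 in all, were tested with limma on log2(FPKM + 0.1), and two-sided p-values were adjusted by Benjamini-Hochberg over all of them, and every fold change below is on that scale. Levels are given as mean ± SD with n = 3 per group. An exact permutation test of 3 libraries against 3 gives no p-value under 0.1.

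The libraries VO 3 and VO 1 stood apart in their cell type markers. In VO 3, the 6 adipocyte markers summed to 438 FPKM, against 3.50 to 7.93 FPKM in the other 5 libraries, and all 6 were highest there. The brown fat gene Ucp1, named after its value was seen, was at 254 FPKM in VO 3 and listed at 0 in the other 5. The 14 autonomic neuron markers summed to 47.5 FPKM in VO 3 and to 20.9 to 30.4 FPKM elsewhere, and the neuronal genes Slc18a3 and Snap25 were listed at 0 in every library but VO 3. The 7 Schwann cell markers, of nerve sheaths, summed to 52.8 FPKM in VO 3 and to 12.5 to 17.7 FPKM elsewhere.

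VO 1 differed in another way. Its 8 macrophage markers summed to 455 FPKM, against 161 to 233 FPKM in the other 5 libraries. Its 12 atrial cardiomyocyte markers summed to 10027 FPKM, the lowest of the 6 libraries, against 14563 to 27680 FPKM in the others. The atrial genes Myl7 and Nppa were at 2586 and 1026 FPKM even in VO 1, so atrial muscle RNA was evident in each library. Which side the atrium came from was not examined. The 8 sinoatrial node markers, whose cells carry Chrm2 and Adora1 at the pacemaker, summed to 25.3, 45.1 and 30.5 FPKM in sham and to 24.8, 33.7 and 45.1 FPKM in VO, with overlap between the groups. The 4 ventricular markers summed to 308, 121 and 235 FPKM in sham and to 92.7, 106 and 143 FPKM in VO, so sham 1 and sham 3 lay above every other library. The 8 fibroblast markers summed to 1029 to 1054 FPKM in sham and to 1050 to 1459 FPKM in VO, highest in VO 1. The part of these markers in the values of the 9 genes was not tested.

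**Figure D1:**
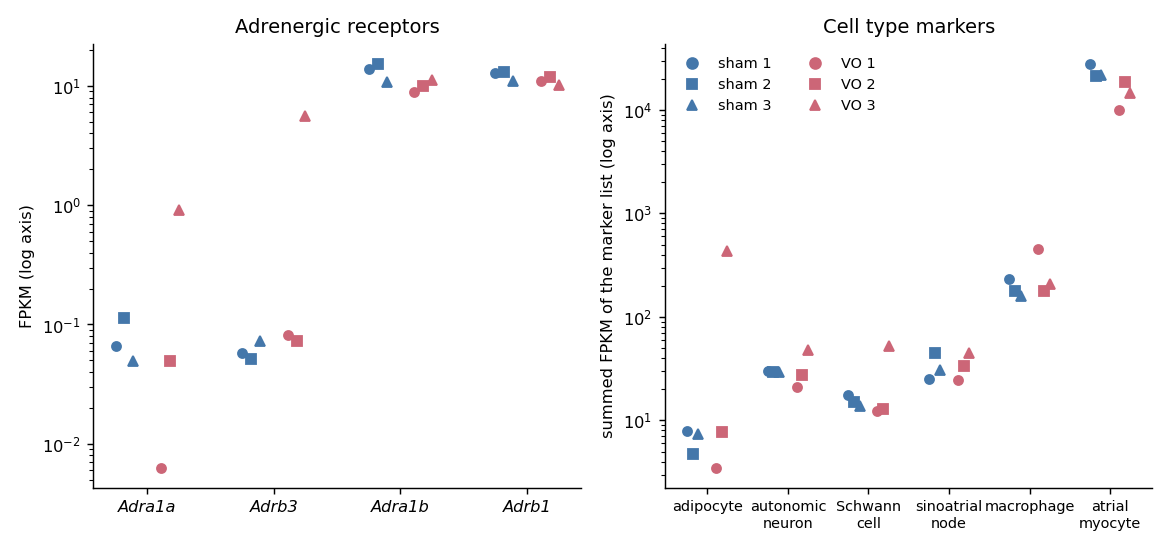
FPKM of 4 adrenergic receptors (left) and the summed FPKM of 6 cell type marker lists (right) in each library, both on log axes, with 1 point per library. Adra1a at 0.913 FPKM and Adrb3 at 5.55 FPKM stood out in VO 3, where the adipocyte markers reached 438 FPKM, and VO 1 was highest for macrophage and lowest for atrial myocyte markers.

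The 9 genes differed widely in their level per length. Chrm2 was by far the most abundant, at 78.8 ± 7.06 FPKM in sham, a level that 3.98% of tested genes exceeded. Gnao1 and Adcy5 followed, with ranges that overlapped each other in both groups. Adra1b, Adrb1 and Rgs6 formed the next level, around 10 to 13 FPKM in both groups, and their order could not be told apart within the spread. Rgs4 and Adora1 were lower and overlapped in sham, where Rgs4 spanned 3.75 to 5.39 FPKM and Adora1 3.06 to 4.10 FPKM. In VO they did not overlap, with Rgs4 at 4.93 to 6.67 FPKM and Adora1 at 2.26 to 3.24 FPKM. Adra1a was below 0.2 FPKM in every library but VO 3.

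**Figure D2:**
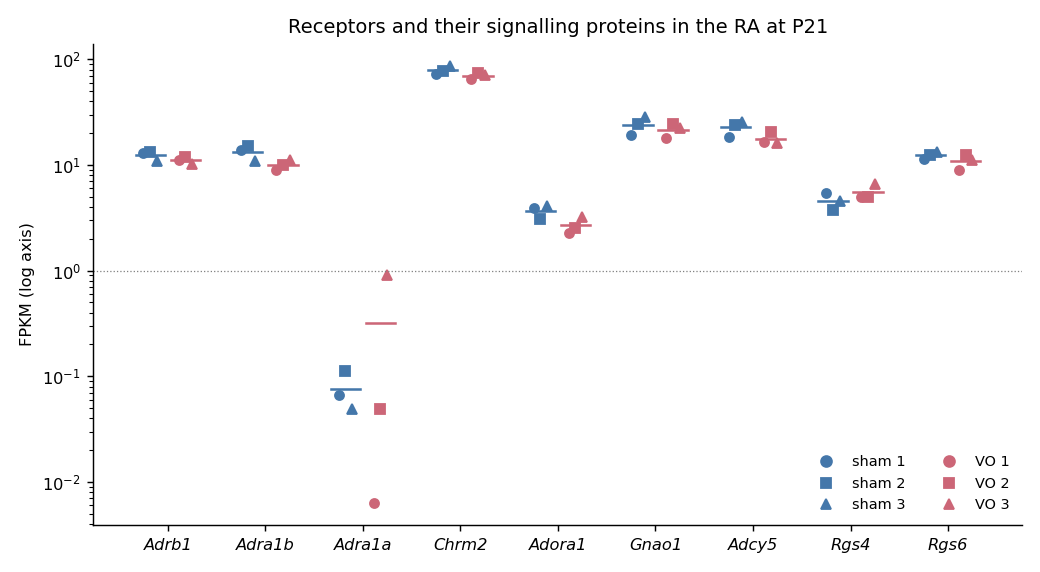
FPKM of the 9 genes in each library on a log axis, with sham in blue, VO in red, 1 symbol per replicate number and a bar at each group's mean. The dotted line marks the 1 FPKM that a gene's mean had to reach for the test, which Adra1a did not, and sham and VO points overlapped for all 9 genes.

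The beta-1 receptor Adrb1 (chr19:56722372-56724862, plus strand, a coding sequence in 1 exon) is the main receptor through which norepinephrine raises the rate and force of the heart. It was at 12.9, 13.2 and 11.0 FPKM in sham 1 to 3 and at 11.1, 11.9 and 10.2 FPKM in VO 1 to 3. The groups overlapped, since sham 3 lay below VO 1 and VO 2. The means of 12.4 ± 1.21 and 11.0 ± 0.858 FPKM differed by -0.16 ± 0.12 (log2 fold change ± SE), with a 95% interval of -0.44 to 0.12 (limma, adjusted p = 0.543). The gene model in the table is shorter than the one in GENCODE M21, which runs from 56722199 to 56733113 on the same chromosome, and fragments outside the model would not be counted.

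Adrb3, the beta-3 receptor, known from fat cells and named after its value was seen, was at 5.55 FPKM in VO 3 from 308 fragments and at 0.0515 to 0.0816 FPKM in the other 5 libraries.

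Adra1b (chr11:43774606-43901210, minus strand, 2 coding exons of 515 codons) encodes the alpha-1B receptor, which couples to Gq and raises inositol trisphosphate and calcium. In sham it was at 13.8, 15.2 and 10.8 FPKM, from 594 to 888 fragments. In VO it was at 8.88, 10.0 and 11.1 FPKM, from 545 to 618 fragments. The groups overlapped by a single pair, sham 3 below VO 3. The means were 13.3 ± 2.27 and 10.0 ± 1.11 FPKM, 0.753 of the sham level in VO, and the log2 fold change of -0.40 ± 0.16 had an unadjusted p of 0.0389 and did not pass over all tested genes (limma, adjusted p = 0.410). Without VO 3 the groups no longer overlapped and the log2 fold change was -0.47, and without VO 1 it was -0.31 (limma, unadjusted p = 0.106). Adra1b is among the genes the study picked from these same libraries for qRT-PCR, which was not analysed here.

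The other alpha-1 receptor of the set, Adra1a (chr14:66635251-66771168, plus strand, 2 coding exons of 466 codons), was close to the limit of reading. It was at 0.0663, 0.113 and 0.0493 FPKM in sham, from 9, 17 and 7 fragments. In VO it was at 0.00631, 0.0492 and 0.913 FPKM, from 1, 7 and 131 fragments. VO 3 alone thus held over 8 times the level of any other library. With the filter lowered to a mean of 0.1 FPKM, the log2 fold change was 0.53 ± 0.88 (limma, adjusted p = 0.823), and with no filter and without VO 3 it turned to -0.47, again without passing (limma, unadjusted p = 0.199). The ratio of Adra1a to Adra1b was 0.00479, 0.00742 and 0.00457 in sham and 0.000711, 0.00490 and 0.0821 in VO (log2 difference 0.93, exact permutation p = 0.5). In VO 3 the fat, neuron and nerve sheath markers given above were also at their highest, and their part in the Adra1a value was not tested.

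Chrm2 (chr6:36388084-36528414, plus strand, a coding sequence in 1 exon of 466 codons) encodes the M2 receptor, the main muscarinic receptor of heart muscle, which couples to Gi and Go. It was at 73.1, 76.7 and 86.7 FPKM in sham and at 64.9, 73.8 and 70.3 FPKM in VO. VO 2 lay above sham 1, so the groups overlapped, and the lowest value was that of VO 1. With 6881 to 8547 fragments per library it was the most deeply read of the set. The means of 78.8 ± 7.06 and 69.7 ± 4.48 FPKM differed by -0.18 ± 0.12 on the log2 scale, with a 95% interval of -0.45 to 0.10 (limma, adjusted p = 0.506), and the difference was 0.01 after quantile normalization. A long noncoding RNA on the other strand, 9330158H04Rik, shares 133 exonic bases with Chrm2 and was at most 4.31 FPKM.

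Chrm3, the only other muscarinic receptor that was tested and named after its values were seen, couples to Gq and was at 0.603 to 1.33 FPKM in sham and 0.687 to 1.31 FPKM in VO. The ratio of Chrm2 to Adrb1, the vagal and the sympathetic receptor of heart muscle, was 5.65, 5.82 and 7.90 in sham and 5.85, 6.22 and 6.93 in VO. The log2 difference was -0.02 with an exact permutation p of 1, and all 3 VO ratios lay within the range of sham.

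Adora1 (chr1:134199223-134235431, minus strand, 2 coding exons of 326 codons) encodes the adenosine A1 receptor, which couples to Gi and Go and slows the node and shortens the atrial action potential. It was at 3.88, 3.06 and 4.10 FPKM in sham and at 2.26, 2.53 and 3.24 FPKM in VO. As for Adra1b, a single pair overlapped, here sham 2 below VO 3. The means of 3.68 ± 0.548 and 2.68 ± 0.505 FPKM put VO at 0.728 of sham, the lowest ratio of the set. The log2 fold change of -0.45 ± 0.18 had an unadjusted p of 0.0423 and did not pass over all tested genes (limma, adjusted p = 0.411). It was -0.59 without VO 3, where the groups no longer overlapped, and -0.34 without VO 1 (limma, unadjusted p = 0.115).

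Adora1 shares 838 exonic bases, 14.5% of its own, with Mybph on the other strand. The labels name no kit that marks strand, so they do not show whether reads of the pair were told apart there. Mybph was at most 0.193 FPKM in any library. Adora2a, an adenosine receptor that couples to Gs and was named after its values were seen, was at 2.02, 1.21 and 1.56 FPKM in sham and at 3.10, 2.44 and 1.83 FPKM in VO. Its log2 fold change was 0.59 ± 0.26 (limma, adjusted p = 0.414), and the groups overlapped.

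Of the 9 genes, 8 had entries in the RefSeq promoter table of GRCm38.p6, with 10 start sites in all, since Adra1b and Adora1 have 2 each. The 250 bases before the start are shown for the members with the lowest unadjusted p, Adra1b and the outer start of Adora1, and for Rgs4, the member with a higher mean in VO. Capitals mark the GC box GGGCGG, the core TGACG of the cyclic AMP response element and the TATA box TATAAA, searched on both strands, and 5′ to 3′ the sequences read:
Adra1b start 1 (chr11:43901238-43901487, minus strand): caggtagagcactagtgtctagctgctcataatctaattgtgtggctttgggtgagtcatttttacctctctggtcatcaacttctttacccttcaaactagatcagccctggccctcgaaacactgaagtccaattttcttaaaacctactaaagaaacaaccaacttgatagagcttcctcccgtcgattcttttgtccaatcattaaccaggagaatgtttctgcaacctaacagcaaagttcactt
Adra1b start 2 (chr11:43836490-43836739, minus strand): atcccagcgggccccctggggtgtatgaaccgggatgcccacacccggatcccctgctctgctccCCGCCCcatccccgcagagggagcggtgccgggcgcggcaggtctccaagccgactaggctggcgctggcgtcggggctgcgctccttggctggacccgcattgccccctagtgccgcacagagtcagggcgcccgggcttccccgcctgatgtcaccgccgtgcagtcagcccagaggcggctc
Adora1 (chr1:134235458-134235707, minus strand): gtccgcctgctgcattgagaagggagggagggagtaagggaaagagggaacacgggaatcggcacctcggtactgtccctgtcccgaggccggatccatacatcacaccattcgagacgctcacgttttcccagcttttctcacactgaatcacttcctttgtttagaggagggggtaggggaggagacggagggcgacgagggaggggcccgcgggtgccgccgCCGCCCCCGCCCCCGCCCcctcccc
Rgs4 (chr1:169747643-169747892, minus strand): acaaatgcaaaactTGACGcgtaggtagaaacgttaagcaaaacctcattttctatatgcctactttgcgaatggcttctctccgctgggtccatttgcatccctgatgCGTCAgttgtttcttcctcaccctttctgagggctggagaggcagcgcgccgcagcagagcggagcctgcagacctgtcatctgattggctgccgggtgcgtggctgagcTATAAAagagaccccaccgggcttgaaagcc
The outer start of Adra1b, at the end of the gene model in the table, had 41.6% G and C and none of the 3 motifs, and the inner start had 72.8% and 1 GC box. Adora1 had 3 adjacent GC boxes, while Rgs4 had a TATA box and 2 such cores and no GC box. A GC box was present in 5 of the 10 entries of the set and in 32.7% of 32851 promoters in the table. The TATA box was in 1 entry, and in 12.4% of all. The core TGACG was in 2 entries, those of Adrb1 and Rgs4, and in 17.8% of all. The full element TGACGTCA, which contains the core, was in 1.55% of all promoters and in none of the 10. These matches describe letters only, and which start was used cannot be read from FPKM of whole genes.

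Downstream of the receptors, Gnao1 (chr8:93809966-93969388, plus strand, 8 coding exons) encodes the alpha subunit of Go, the partner of M2 and A1 receptors. It was at 19.3, 24.4 and 28.2 FPKM in sham and at 18.0, 24.2 and 22.3 FPKM in VO. All but VO 1 lay within the range of sham. The log2 fold change was -0.15 ± 0.18, with a 95% interval of -0.57 to 0.26 (limma, adjusted p = 0.691), and -0.03 without VO 1.

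Adcy5 (chr16:35154877-35305738, plus strand, 21 coding exons) encodes adenylyl cyclase 5, with adenylyl cyclase 6 the main cyclase of heart muscle, which Gs turns on and Gi turns off. It was at 18.5, 24.0 and 25.7 FPKM in sham and at 16.5, 20.4 and 16.2 FPKM in VO. Sham 1 lay below VO 2, the only pair that overlapped. The means were 22.7 ± 3.76 and 17.7 ± 2.35 FPKM, and the log2 fold change was -0.35 ± 0.16 (limma, unadjusted p = 0.0631, adjusted p = 0.422). It was -0.49 without sham 1 and -0.26 without sham 3 (limma, unadjusted p = 0.0122 and 0.198).

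Set against its closest relative, Adcy5 was lower in every VO library. Adcy6 was at 38.3, 41.5 and 45.4 FPKM in sham and 34.8, 45.5 and 35.4 FPKM in VO. The ratio of Adcy5 to Adcy6 was 0.483, 0.578 and 0.566 in sham and 0.474, 0.449 and 0.458 in VO. The groups did not overlap, and the log2 difference of -0.23 had an exact permutation p of 0.1, the smallest that 3 against 3 allows and unadjusted over the 5 ratios compared. It was -0.31 to -0.18 when each library was left out in turn, and no such subset overlapped. The nearest pair was sham 1 and VO 1.

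Rgs6 (chr12:82588292-83162056, plus strand, 17 coding exons) encodes an R7-family RGS protein that ends M2 signals in the atrium and node. In sham it was at 11.4, 12.4 and 13.2 FPKM and in VO at 8.97, 12.4 and 11.1 FPKM. VO 1 was the lowest of the 6 libraries, and VO 2 lay within the sham range. The log2 fold change was -0.20 ± 0.14 (limma, adjusted p = 0.536), and -0.07 without VO 1.

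Rgs4 (chr1:169741477-169747642, minus strand, 5 coding exons of 205 codons) encodes a small RGS protein that acts on Gi, Go and Gq and is high in the sinoatrial node. It was at 5.39, 3.75 and 4.56 FPKM in sham and at 4.93, 4.95 and 6.67 FPKM in VO, from 200 to 340 fragments. Sham 1 lay above VO 1 and VO 2, and VO 3 was the highest. The log2 fold change of 0.27 ± 0.18 did not pass (limma, adjusted p = 0.515), and it was 0.13 without VO 3. The ratio of Rgs4 to Rgs6 was 0.473, 0.302 and 0.345 in sham and 0.549, 0.398 and 0.602 in VO, with overlap and a log2 difference of 0.47 (exact permutation p = 0.2).

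Over the 8 tested genes the median log2 fold change was -0.19, against -0.01 over all tested genes. Counted at an unadjusted p under 0.05, 2 of 8 members (25%) were lower in VO, where 8.08% of all tested genes were. No member was higher at that level, where 3.89% of all genes were. After adjustment the count was 0, where 0.00792% of genes, a single one, passed. No tested member was without overlap between groups, while 12.9% of all genes were without overlap and lower in VO and 8.25% without overlap and higher. Without VO 3, the 2 members Adra1b and Adora1 were without overlap and lower, where 19.9% of all genes were.

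These counts changed with the libraries included. VO 1 was the lowest of all 6 libraries for 5 of the 8 tested genes and the lowest of the VO libraries for 6. How many of all tested genes were lowest in VO 1 was not counted. VO 1 also had the least cardiomyocyte marker RNA, whose part in these counts was not tested. Without VO 1 the count of members lower at an unadjusted p under 0.05 went from 2 to 0 and the median to -0.15. It was 1 without VO 2 or without any 1 of the 3 sham libraries, and 2 without VO 3. On the TPM scale, where each library sums to the same total, all-gene counts turned from 1020 lower and 491 higher to 488 lower and 1085 higher, the median of all genes moved to 0.13, and the median of the members was -0.05. On that scale no member was lower and 1, Rgs4, was higher at an unadjusted p under 0.05.

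**Figure D3:**
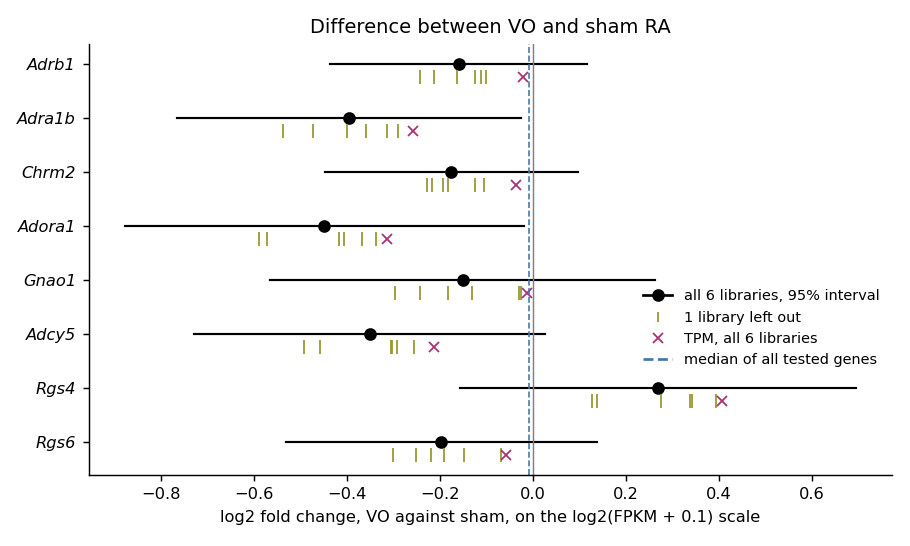
Log2 fold change of the 8 tested genes, VO against sham, with the 95% interval from limma (black), the values with 1 library left out in turn (ticks) and the value on the TPM scale (crosses). The intervals of Adra1b and Adora1 lay just below 0 before adjustment, and the TPM values of all 8 genes lay to the right of the FPKM values.

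The cardiomyocyte markers themselves had lower means in VO, but none of those tested passed the adjusted threshold (limma, smallest adjusted p = 0.373, for Actc1). Among them, Myh6, Nppa, Sln, Ttn and Ryr2 had overlap between groups. Of the 12 markers 11 were tested, and all 11 had a lower mean in VO (median log2 fold change -0.51), 5 of them with an unadjusted p under 0.05, beside 51.5% of all tested genes with a lower mean and 8.08% lower at that p. Myl7, the atrial light chain, was at 8501, 5701 and 5531 FPKM in sham and at 2586, 5056 and 3767 FPKM in VO (limma, adjusted p = 0.410). The mean log2 level of the 11 markers differed by -0.57 between VO and sham, without overlap, and by -0.37 without VO 1.

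Measured against these markers within each library, all 8 members were higher in VO, by 0.12 for Adora1 to 0.84 for Rgs4 on the log2 scale. Over all tested genes the median of the same difference was 0.56. Without VO 3 the difference of Adora1 was 0.0019, and without sham 1 that of Adcy5 was 0.0083. Rgs4 and Rgs6 were without overlap, 2 of 8 members, where 52.1% of all tested genes were without overlap and higher. This count was 7 of 8 without VO 2, 4 without sham 3, 3 without sham 2 and 2 without each of the others. The share of all tested genes was not counted for these subsets, so these counts cannot be read as particular to the members. Rgs4 lay -7.69 to -7.40 from the marker mean in sham and -7.17 to -6.41 in VO. Rgs6 lay -6.33 to -5.92 in sham and -5.86 to -5.56 in VO. For 7 of the 8 members the difference was below the median of all genes, and for Rgs4 above it.

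**Figure D4:**
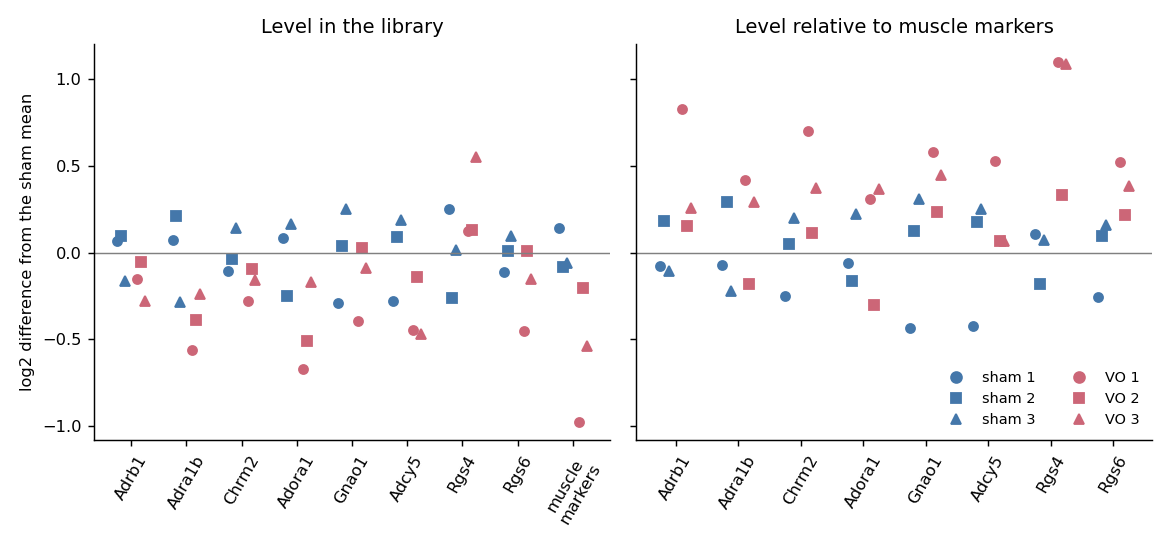
Log2 level of the 8 tested genes in each library as a difference from the sham mean, without (left, with the mean of 11 cardiomyocyte markers at the end) and with (right) subtraction of those markers in the same library. VO 1 was lowest for most members and for the markers on the left, and on the right the VO points moved above most sham points, by 0.12 to 0.84 on average.

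The genes around the set were taken from 14 lists of the pathway. Outside the 9 genes, 155 were found and 109 were tested, of which 48 had a lower and 61 a higher mean in VO, and their median log2 fold change was 0.04. None passed the adjusted threshold (limma, smallest adjusted p = 0.404). At an unadjusted p under 0.05, 7 were lower (6.42%) and 5 higher (4.59%), beside 8.08% and 3.89% over all genes. Without overlap were 12 of the 109 lower and 8 higher, beside 12.9% and 8.25% of all tested genes.

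Among 15 tested channels and calcium targets, 3 were lower and 0 higher at an unadjusted p under 0.05, and 4 were without overlap and lower. Over all tested genes these shares were 8.08%, 3.89% and 12.9%. Kcnq1, the channel of the slow delayed rectifier current, was at 16.5, 15.5 and 16.4 FPKM in sham and 9.40, 13.4 and 12.3 FPKM in VO. Its log2 fold change was -0.48 ± 0.15 (limma, adjusted p = 0.404), or -0.33 without VO 1. Fxyd1, phospholemman, a regulator of the sodium pump that protein kinase A phosphorylates, was at 89.8, 63.3 and 59.0 FPKM in sham and 28.4, 52.3 and 43.5 FPKM in VO. Its log2 fold change was -0.79, or -0.54 without VO 1. Kcnj5, the channel subunit opened by M2 and A1 receptors, was named after its values were seen. Kcnj5 was at 90.9, 97.5 and 114 FPKM in sham and 67.6, 84.6 and 73.2 FPKM in VO. Its log2 fold change was -0.42 ± 0.14 (limma, adjusted p = 0.404), or -0.35 without VO 1. Its partner Kcnj3, also named after its values were seen, was at 111 to 145 FPKM in sham and 125 to 166 FPKM in VO, with overlap and a log2 fold change of 0.12, or 0.22 without VO 1. The fourth without overlap was Tnni3, cardiac troponin I, which is also in the cardiomyocyte marker list and was named after its values were seen. Kcnj5 and Fxyd1 were among the genes the study picked from these libraries.

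The cyclic AMP machinery held genes on both sides. Of 6 tested adenylyl cyclases outside the set, Adcy3 and Adcy7 were without overlap and higher in VO, beside 8.25% of all tested genes. Adcy3 was at 1.02, 0.929 and 0.885 FPKM in sham and 1.59, 1.46 and 2.41 FPKM in VO. Its log2 fold change was 0.85 ± 0.26 (limma, adjusted p = 0.404), or 0.64 without VO 3. Adcy7 was highest in VO 1, at 7.74 FPKM, and its log2 fold change of 0.48 was 0.20 without that library.

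Of 12 tested genes of protein kinase A and its anchors, 3 were without overlap and lower and 1 higher, beside 12.9% and 8.25% of all tested genes. The inhibitor Pkig was at 43.4, 32.4 and 37.2 FPKM in sham and 21.8, 30.2 and 25.3 FPKM in VO (log2 fold change -0.55 ± 0.16, limma, adjusted p = 0.404). The catalytic subunit Prkaca had a log2 fold change of -0.21 ± 0.13, which was -0.09 without VO 1, and the anchor Akap12 one of 0.37 ± 0.13. Of 12 tested phosphodiesterases, Pde4b, which breaks down cyclic AMP, was at 8.87 to 9.30 FPKM in sham and 7.04 to 8.28 FPKM in VO, a log2 fold change of -0.25 ± 0.10. Pde5a, specific for cyclic GMP, was the one without overlap and higher, with a log2 fold change of 0.41 ± 0.20, which was 0.25 without VO 1.

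In the 9 tested RGS genes outside the set, Rgs5, which marks pericytes and smooth muscle, was at 73.2, 64.6 and 69.8 FPKM in sham. In VO it was at 94.4, 79.1 and 110 FPKM (log2 fold change 0.44 ± 0.14, limma, adjusted p = 0.404). The log2 fold change of Rgs5 was 0.32 without VO 3 (limma, unadjusted p = 0.064). Rgs17 was without overlap and lower, with a log2 fold change of -0.48 ± 0.25. Among the beta and gamma subunits, Gnb5, the obligate partner of Rgs6 and its family, was at 11.0 to 13.1 FPKM in sham and 9.54 to 10.6 FPKM in VO, a log2 fold change of -0.22 ± 0.11 (limma, adjusted p = 0.427), and Gnb4 had one of 0.26 ± 0.12. None of the 9 tested alpha subunits outside the set was without overlap. Of all tested genes, 12.9% were without overlap and lower and 8.25% without overlap and higher.

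Of 10 tested genes of adenosine handling, 7 had a lower mean in VO and 2 were without overlap and lower, beside 51.5% and 12.9% of all tested genes. Nt5e, the ecto-nucleotidase CD73 that makes adenosine outside the cell, was at 13.7, 8.75 and 9.29 FPKM in sham and 6.31, 7.48 and 6.56 FPKM in VO, a log2 fold change of -0.61 ± 0.18 (limma, adjusted p = 0.404). Ahcy, which makes adenosine from S-adenosylhomocysteine, had a log2 fold change of -0.32 ± 0.13. The nucleoside carrier Slc28a2, named after its values were seen, was the one higher at an unadjusted p under 0.05, with a log2 fold change of 0.51 ± 0.20, and its groups overlapped.

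In the remaining lists, Itpr2, an inositol trisphosphate receptor, was the 1 of 11 tested Gq effectors without overlap, at 2.75 to 3.35 FPKM in sham and 3.64 to 4.26 FPKM in VO (log2 fold change 0.37 ± 0.13, limma, adjusted p = 0.406). Arrb2, beta-arrestin 2, which takes receptors off their G proteins, was the 1 of 6 receptor kinases and arrestins without overlap. It was at 5.67 to 6.28 FPKM in sham and 6.32 to 14.7 FPKM in VO, and its highest value was in VO 1. Its log2 fold change was 0.58 ± 0.29, and 0.23 without VO 1. Of the 7 tested genes of catecholamine and acetylcholine handling, none was without overlap. Beside these lists, 12.9% of all tested genes were without overlap and lower and 8.25% without overlap and higher.

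**Figure D5:**
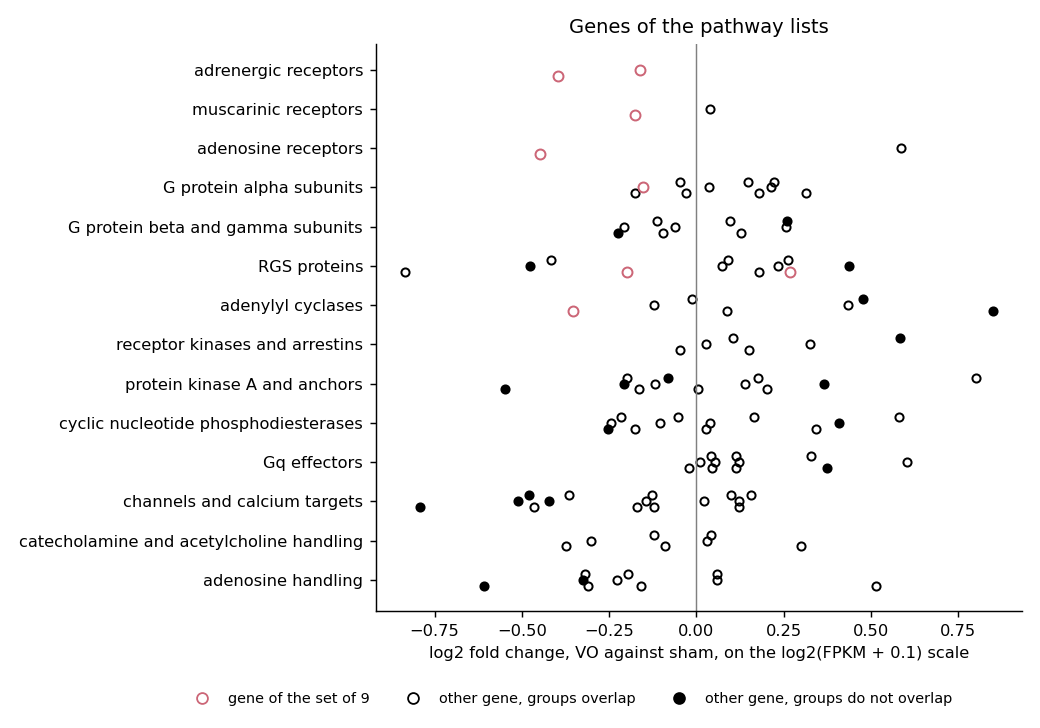
Log2 fold change, VO against sham, of the tested genes in the 14 pathway lists, with the genes of the set in red and filled points for genes whose groups did not overlap. The 8 tested members lay between -0.45 and 0.27, and filled points stood on both sides of 0.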

How the data were processed

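RNA of RAs was read as 150-bp paired-end libraries. The authors aligned reads with HISAT2 2.0.5, counted them with featureCounts 1.5.0-p3 and deposited FPKM. The submitters' processing notes name GRCm38 and mm10, and also StringTie 1.3.3b, DESeq2 1.16.1 and GATK 3.7 with no role, and the annotation release is not given in the sources used here. Start and end were identical to GENCODE M21 for 98.4% of 54039 shared genes. One incomplete row was left out. FPKM times gene length was a whole multiple of 1 step per library for 100% of values, within 0.001 fragments, which gave the fragments and showed that a scaling between libraries had been applied (median-of-ratios factor 1 in all 6). The study's DESeq2 test on counts was not repeated, since the deposited unit is FPKM, and voom was run on the recovered fragments instead.

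Groups came from the sample labels. Limma 3.58.1 in R 4.3.3 (lmFit, eBayes with trend, no covariate, threshold 0.05) was run on log2(FPKM + 0.1) and tested on simulated data. Ratios were compared by exact permutation of log2 ratios (two-sided), and levels relative to 11 cardiomyocyte markers were described without a test. Samples with the same replicate number did not deviate together (r = -0.108, 0.0112 and -0.0292), so no pairing was used. The members, lists, tests and alternatives were chosen with earlier results of these data known. Genes named are the 9 members, the paralogs used in ratios and, in each pathway list, those passing the adjusted threshold or else the 2 of smallest p in each direction without overlap. Of marker lists, single genes are named for cardiomyocytes, the node and neurons. Genes that share exonic bases with a member are also named. Others are said to be named after their values were seen. Alternatives were pseudocounts of 1 and 0.01, filters of 0.1, 5 or none, FPKM as deposited, TPM, quantile normalization, a variance prior with no trend or a robust one, voom on the fragments, a replicate block and each library left out. A gene of the adrenergic receptor list and the ratio that used it are not reported here.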

Additional observations from a re-analysis of the deposited data

How the results depend on the processing

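No member passed the adjusted threshold under any alternative (limma, adjusted p from 0.29 to 0.97). The count of all genes that passed, 1, was 2 with a pseudocount of 1, 3 with a mean of at least 0.1 FPKM, 3 without trend, 0 with quantile normalization or robust variance, and 0 without each library. Genes lower at an unadjusted p under 0.05 numbered 1020, 488 with TPM and 573 to 1209 without 1 library. Genes higher numbered 491, 229 with a mean of at least 5 FPKM, 840 with no filter, 1085 with TPM and 280 to 792 without 1 library. Members lower at that level, 2, were 1 with a mean of at least 5 FPKM (Adora1 then left the test), with no filter, with quantile normalization and without trend, 0 with TPM and 0 to 2 without 1 library. With TPM 1 member was higher, and the members' median was -0.048. Members without overlap and lower, 0, were 0 to 3 without 1 library, and the share of all genes was counted only without VO 3 (19.9%). Chrm2 turned to 0.0122 with quantile normalization, and Adra1a to -0.47 with no filter and without VO 3, an alternative chosen after seeing the data. The other members kept their sign in every alternative, Adra1b from -0.54 to -0.26 and Adora1 from -0.59 to -0.31. The cause of these shifts was not tested. Of 502 counts over pathway lists and alternatives, 428 stayed within 1.5 times. Where 1 library was left out, the arm of 2 shared its spread with the other arm.

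The replicate block gave 0 genes past the adjusted threshold, 608 lower and 324 higher at an unadjusted p under 0.05, and 1 member lower. Since samples share only a number (same-number r = -0.108, 0.0112 and -0.0292), this pairing was not used. Sham 1 correlated best with VO 3 and sham 3 with VO 1. Precision is limited by 3 libraries per group and, for Adra1a, by 1 to 131 fragments.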

Other observations

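Transcription factors and enzymes of sympathetic neurons were read in the RA at levels above most other neuronal markers. Hand2, a factor of the sympathetic lineage that heart cells also use, was at 13.8, 12.1 and 12.8 FPKM in sham and at 8.42, 9.47 and 8.53 FPKM in VO. The groups did not overlap, the log2 fold change was -0.54 ± 0.10, and it did not pass over all tested genes (limma, unadjusted p = 0.0012, adjusted p = 0.284). It was -0.52 without VO 3 and -0.51 without VO 1. Dbh, which makes norepinephrine from dopamine, was at 9.74, 8.94 and 9.58 FPKM in sham and at 4.79, 9.32 and 8.52 FPKM in VO, and its log2 fold change of -0.37 was -0.08 without VO 1. Th, which makes the precursor of dopamine, was at most 0.27 FPKM in all libraries but VO 3, where it was at 1.05 FPKM. Slc5a7, the choline carrier of cholinergic nerves, was at 1.94 FPKM in VO 3 and at 0.0911 to 0.206 FPKM in the other 5 libraries.

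The sinoatrial node genes Hcn4, Shox2 and Tbx18 were read in every library, with overlap between groups. Isl1, also in the node list, was listed at 0 in VO 1. It was at 0.170 and 1.11 FPKM in VO 2 and VO 3 and at 0.114 to 0.308 FPKM in sham. Hcn4, the main pacemaker channel, was at 3.07, 9.61 and 5.18 FPKM in sham and at 1.97, 4.34 and 6.61 FPKM in VO. Shox2, a factor of the sinoatrial node, was at 2.54, 6.10 and 3.69 FPKM in sham and at 1.07, 4.17 and 6.34 FPKM in VO. Tbx18 had the only unadjusted p under 0.05 of the 7 tested node markers, with a log2 fold change of 0.59 ± 0.25 and overlap between groups (limma, adjusted p = 0.414). Over all tested genes, 3.89% were higher at that p. Tbx18 was at 2.67, 4.19 and 3.58 FPKM in sham and at 6.30, 3.72 and 5.99 FPKM in VO. Within VO it was lowest in VO 2, while Hcn4 and Shox2 were lowest in VO 1.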
